A study of Mus musculus with 12 samples.

Results

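The interaction of genotype and neonatal diethylstilbestrol (DES) in the mouse seminal vesicle is described here: for each gene, how much larger the response to DES was in wild-type (WT) males than in males without estrogen receptor alpha (aERKO). All 12 arrays of the series enter it. Male C57BL/6 pups received DES under the skin on days 1 to 5 of life, 2 µg a day for each pup, or with the corn oil it was dissolved in, and seminal vesicles were collected at week 10. The 4 groups were WT given vehicle (WT_vehicle), WT given DES (WT_DES), aERKO given vehicle (aERKO_vehicle) and aERKO given DES (aERKO_DES), with 3 arrays each, so both genotypes received oil or DES in the same way and week 10 was the time of collection in all of them. The design asks whether the change that early DES leaves in the adult gland depends on the receptor. The response of a genotype is the mean log2 expression of its DES arrays minus that of its vehicle arrays, and the interaction is the WT response minus the aERKO response. Genes entered by annotation, those with exactly 1 symbol, 30063 in all. Of these, 20102 passed a filter on low values and were tested with limma. The gene lists used below were chosen with earlier results of these data known. A gene is called at a Benjamini-Hochberg adjusted p below 0.05.

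DES is a synthetic estrogen that binds both estrogen receptors. Estrogen receptor alpha is a hormone-activated transcription factor encoded by Esr1, and in the female tract it drives epithelial growth and the secretion of proteins such as lactoferrin. The seminal vesicle grows from the Wolffian duct under androgens and secretes most of the protein of seminal plasma from a columnar epithelium wrapped in smooth muscle.

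Nothing in the labels ties each array to an animal of its own, so the spread that the p-values rest on is that between these 12 samples and may be technical. Array medians lay between 5.95 and 6.14. Correlations across genes were 0.982 or above for arrays of the same group, 0.983 or above between the other 3 groups, and 0.867 to 0.919 between WT_DES and any other group. On the second principal component (5.6% of the variance) aERKO_DES array 3 stood at -23.25 and WT_DES array 3 at -17.29, the lowest positions of the 12 arrays. The control RNAs added at hybridization were lower after DES by 0.357 in WT and by 0.132 in aERKO, an imbalance of -0.225 in the interaction. The imbalance was -0.525 for the polyA control RNAs and -0.384 for the background controls. Results with arrays shifted to the hybridization controls are given below; shifts to the other controls were not tested. The seminal vesicle secretory genes Svs1 to Svs6 were all among the genes tested, and Svs4 lay between 13.73 and 13.96 on all 12 arrays, near the highest value in the table, 14.54.

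Esr1 itself was 7.80, 7.66 and 7.80 in WT_vehicle and 7.74, 7.68 and 7.55 in WT_DES. It was 7.01, 7.09 and 6.88 in aERKO_vehicle and 6.81, 6.99 and 6.90 in aERKO_DES. Every aERKO array lay below every WT array, and the genotype difference given vehicle was -0.76 (limma adjusted p = 0.00587). Its interaction was 0.00 ± 0.11 (SE, adjusted p = 0.992), so the response of Esr1 to DES did not differ detectably between the genotypes. Where the probes of Esr1 lie relative to the deleted part of the gene is not given in the sources used here. The remaining signal in aERKO, 6.99 on average given vehicle against 5.33 for the background controls, cannot be assigned to intact or truncated transcript.

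DES left a response in the WT gland that was not detected in the aERKO gland. In WT, 8829 genes were called (43.9% of those tested), 4152 of them higher (20.7%) and 4677 lower (23.3%), and 1029 differed by at least 2-fold as well (5.12%). In aERKO, limma called 0 genes (0.0%), with a smallest adjusted p of 0.999, and 264 genes (1.31%) had an unadjusted p below 0.05. With an array left out, limma called at most 1 gene in aERKO, Mid1 without aERKO_DES array 1 (0.95, adjusted p = 0.0087) or Nt5c2 without aERKO_DES array 2 (1.79, adjusted p = 0.000504). The interaction itself was called for 4679 genes (23.3%), 2838 positive (14.1%) and 1841 negative (9.16%), and 7842 genes had an unadjusted p below 0.05. A positive interaction means that DES raised the gene more, or lowered it less, in WT than in aERKO. At a size of at least 2-fold, 976 interactions were called (4.86%), of which 909 were positive (4.52%) and 67 negative (0.333%). By size, 339 positive and 3 negative interactions reached a log2 size of 2, and 103 positive interactions and no negative one reached 4.

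The number of called interactions and their direction depended on scaling and on single arrays. Positive interactions made up 60.7% of calls with the values as deposited, 38.6% after a shift of all arrays to equal medians, 37.7% after quantile normalization and 95.5% when arrays were shifted to the hybridization controls. That last shift moved the median interaction of all genes from -0.03 to 0.19. The 1841 negative calls became 1213, 1055 or 1158 without WT_vehicle array 1, 2 or 3, 1061 without WT_DES array 2, 1179 without aERKO_vehicle array 2 and 1198 without aERKO_DES array 2. All 909 positive and all 67 negative interactions of at least 2-fold kept their call under each of the 3 scalings. With any array left out, 906 to 909 and 62 to 67 of them kept it. How many interactions reached 2-fold moved more: negative ones numbered 36 with the hybridization controls, 97 after the median shift, 163 after quantile normalization and 126 without WT_DES array 1. Positive ones numbered 1262, 834 and 836 under these 3 scalings. With whole tissue, a higher share of cells of a type and more RNA per cell cannot be told apart, and this holds for each gene group below.

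**Figure D1:**
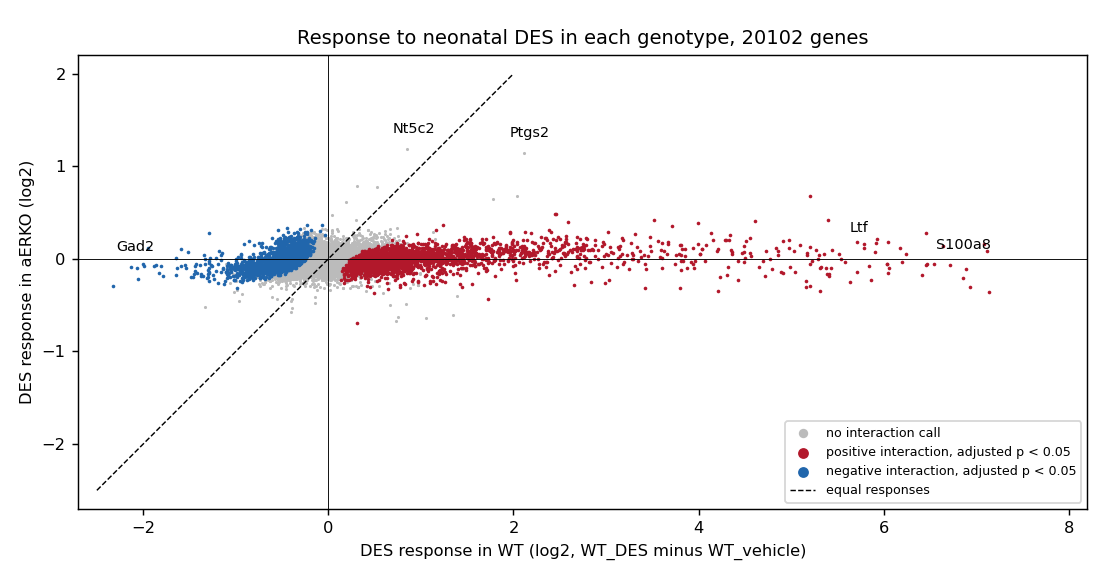
Each point is 1 of the 20102 genes tested, with its log2 response to DES in WT on the horizontal axis and in aERKO on the vertical axis. Red points are the 2838 positive and blue points the 1841 negative interactions called. WT responses reach beyond 6 while nearly all aERKO responses lie within 0.5 of 0, and called genes fall away from the dashed line of equal responses. The unlabelled points furthest to the right include immunoglobulin segments.

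The aERKO arm can be read on the genes that WT marks out, since the 2 arms share no array. Of the 922 genes at least 2-fold higher after DES in WT (median WT response 1.66), the median aERKO response was 0.05, with a 5th percentile of -0.165 and a 95th of 0.211. The 95% interval of the aERKO response excluded a 2-fold difference for 915 of the 922 (99.2%), against 99.7% of all genes. The median gene of this set showed in aERKO 2.4% of its WT response, and none reached 2-fold. Of the 909 large positive interactions, 541 belonged to genes above the array median on all 12 arrays; the others fell below it on at least 1 array, where a low level can hide a small response. Of the 179 genes at least 8-fold higher in WT, the median aERKO response was also 0.05, or 1.1% of the WT response. The filter asked for as few arrays above the median as a group holds, so a gene could enter through WT_DES alone. For such a gene near the floor in both aERKO groups, as S100a8 was, an aERKO response near 0 was fixed in advance. How many of the 922 or 179 genes entered in this way was not counted. Of the 107 genes at least 2-fold lower in WT (median -1.19), the median aERKO response was -0.11, and all 107 intervals excluded a 2-fold difference.

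Both sets leaned slightly in the WT direction in aERKO. For the 107 genes the lean rested on aERKO_DES array 3, and for the 922 genes part of it remained without that array. Of the 922 genes, 629 (68.2%) were higher in aERKO_DES than in aERKO_vehicle, where 44.3% of all genes were. Of the 107 genes, 95 (88.8%) were lower, where 55.7% of all genes were. On the 3 aERKO_DES arrays the median difference of the 107 genes from the aERKO_vehicle mean was 0.01, -0.01 and -0.34, and on array 3 alone 103 of the 107 were lower. Without that array the median was -0.02 and 60 of 107 (56.1%) were lower, close to the share of all genes. For the 922 genes the 3 medians were 0.06, -0.02 and 0.10, and on array 1 alone 621 of the 922 were higher. Without array 3 the set's median was 0.02 and 539 of the 922 were higher; 41.5% were lower, against 55.6% of all genes. Across all genes the 2 responses correlated at r = 0.135, given as a description, since genes of 1 array share its scaling.

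**Figure D2:**
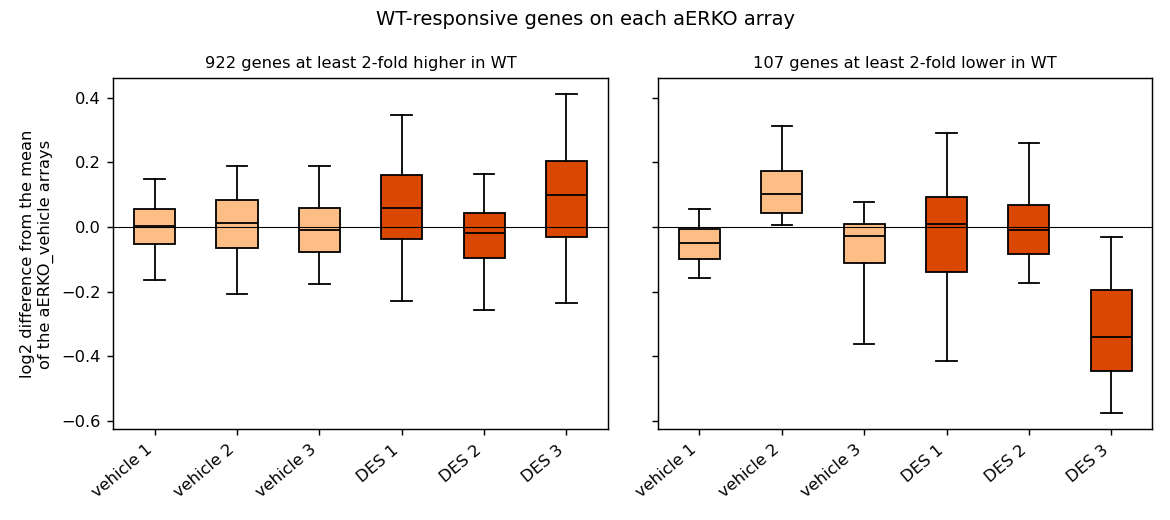
Differences of each aERKO array from the mean of the 3 aERKO_vehicle arrays, in log2, for the 922 genes at least 2-fold higher (left) and the 107 at least 2-fold lower (right) after DES in WT. Boxes give quartiles with the median as a line and whiskers the 5th and 95th percentiles of genes. On the right, DES array 3 lies lowest, with a median of -0.34, while DES arrays 1 and 2 lie at 0.01 and -0.01.

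Few starting levels were called different between the 2 genotypes, which does not show that the rest were equal. Given vehicle, 5 genes were called between aERKO and WT (0.0249%), 2 of them at 2-fold or more (0.00995%). They were Atp13a4, a transport ATPase gene (1.48), Ms4a5 (-2.59), the prostaglandin D synthase gene Ptgds (0.92), Timp1, an inhibitor of matrix proteases (-0.80), and Esr1. That count was 3 without WT_vehicle array 1 or 2, 0 without WT_vehicle array 3, and 2 without aERKO_vehicle array 2 or 3. Given DES, the genotypes differed in 10483 genes (52.1%), 1093 of them by at least 2-fold (5.44%). This comparison shares its DES arrays with the interaction. Of the 976 large interactions, 19 belonged to genes whose genotype difference given vehicle exceeded 0.5, and only Timp1 among them had a called difference there. Timp1 read 8.44, 8.40 and 8.62 in WT_vehicle and 9.71, 9.87 and 9.68 in WT_DES, against 7.59, 7.71 and 7.77 in aERKO_vehicle and 7.79, 7.74 and 7.95 in aERKO_DES, so it was lower without the receptor at baseline and its interaction was 1.12 ± 0.12 (SE, adjusted p = 2.98e-05).

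The largest named interactions belonged to genes of neutrophils, mucosal defence and squamous epithelium. S100a8, whose product binds calcium and fills the cytoplasm of neutrophils, read 10.17, 10.74 and 10.24 in WT_DES. On the other 9 arrays it lay between 3.49 and 3.90, with 3.49, 3.90 and 3.66 in aERKO_DES. The WT_DES arrays stood far above all others, and the interaction was 6.79 ± 0.22 (SE, adjusted p = 6.62e-10), a 110-fold difference between the responses. The aERKO response was -0.07, with a 95% interval from -0.40 to 0.26. In WT_vehicle, S100a8 stood under the background controls by 1.64 on the log2 scale (-1.64), as did 132 of the 909 genes with large positive interactions by some amount, and a fold from such a baseline is not exact. Ltf, which encodes lactoferrin and is induced by estrogen in the uterus, read 11.64, 12.31 and 12.40 in WT_DES and 6.19, 6.25 and 6.90 in aERKO_DES. Vehicle arrays lay between 6.17 and 6.44 in both genotypes. Its interaction was 5.66 ± 0.28 (SE, adjusted p = 2.4e-08), with an aERKO response of 0.12.

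Among the leading genes, Ltf stands on the lists of estrogen targets and of neutrophil genes, and S100a8 on the neutrophil list. Sprr2f, a squamous gene, stands on the list of estrogen targets, and Saa3 on the acute-phase list. The promoters of Il1b, Pigr and Pgr, genes also higher after DES in WT, held no match to the motifs named below. Those of Ltf, S100a8, Sprr2f and Saa3 are shown as examples with a match, and these 4 genes moved together in WT. Each runs from 250 bases before to 50 bases after the start of the gene in RefSeq (GRCm38.p6), 5′ to 3′ on the gene's strand. Capitals mark matches to the motifs named below.
Ltf: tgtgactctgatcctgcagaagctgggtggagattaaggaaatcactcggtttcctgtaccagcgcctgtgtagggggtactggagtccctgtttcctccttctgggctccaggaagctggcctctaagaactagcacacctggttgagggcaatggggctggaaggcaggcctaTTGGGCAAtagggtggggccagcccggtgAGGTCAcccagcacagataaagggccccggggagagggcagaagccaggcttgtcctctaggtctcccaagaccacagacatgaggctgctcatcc
S100a8: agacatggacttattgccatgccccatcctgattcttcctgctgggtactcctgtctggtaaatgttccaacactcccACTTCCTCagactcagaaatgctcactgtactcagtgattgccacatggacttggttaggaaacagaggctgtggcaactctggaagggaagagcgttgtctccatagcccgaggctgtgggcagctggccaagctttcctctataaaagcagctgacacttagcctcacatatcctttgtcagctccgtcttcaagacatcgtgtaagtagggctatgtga
Sprr2f: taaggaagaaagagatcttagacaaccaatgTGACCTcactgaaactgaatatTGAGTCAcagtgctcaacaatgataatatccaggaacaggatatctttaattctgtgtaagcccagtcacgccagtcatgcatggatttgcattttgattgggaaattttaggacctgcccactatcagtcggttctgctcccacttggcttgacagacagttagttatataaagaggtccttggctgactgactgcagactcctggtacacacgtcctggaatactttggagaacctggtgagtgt
Saa3: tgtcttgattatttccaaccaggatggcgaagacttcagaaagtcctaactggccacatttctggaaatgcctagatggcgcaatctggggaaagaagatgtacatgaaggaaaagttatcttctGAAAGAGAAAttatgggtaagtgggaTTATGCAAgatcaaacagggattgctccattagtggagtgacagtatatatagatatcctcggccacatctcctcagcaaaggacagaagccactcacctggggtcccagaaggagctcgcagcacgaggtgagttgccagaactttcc
Ltf lies at chr9:111019042-111019341 (plus strand), S100a8 at chr3:90668821-90669120 (plus), Sprr2f at chr3:92364937-92365236 (plus) and Saa3 at chr7:46715627-46715926 (minus). The Ltf window holds a match to AGGTCA, the arm that the estrogen response element carries on either side, 46 bases before the start, and a C/EBP motif (TTGCNNAA) on the opposite strand 75 bases before it. The S100a8 window holds a PU.1 motif (GAGGAAGT) on the opposite strand, 172 bases before the start. The Sprr2f window holds AGGTCA on the opposite strand 219 bases before and an AP-1 motif (TGANTCA) 197 bases before the start. The Saa3 window holds an interferon-stimulated response element (GAAA, any 2 bases, GAAA) 125 bases before and a C/EBP motif on the opposite strand 99 bases before the start.

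Motifs were counted on both strands in 12694 tested genes with a RefSeq promoter. Promoters of a whole chromosome were left out of all these counts. AGGTCA occurred in 17.6% of the 528 promoters of genes with a large positive interaction, in 14.6% of the 48 with a large negative interaction and in 15.9% of all promoters. The full estrogen response element, GGTCA and TGACC with any 3 bases between, which can overlap the AGGTCA motif, occurred in 5 promoters of all and in none of those 528 or 48. AP-1 occurred in 13.6% of the 528, 10.4% of the 48 and 6.89% of all, and C/EBP in 16.7%, 14.6% and 10.3%. The interferon-stimulated element occurred in 58 promoters of the 528, 4.17% of the 48 and 3.59% of all, and PU.1 in 9.85%, 4.17% and 3.56%. NF-kB (GGGA, any base, TTTCC) occurred in 1.33%, 4.17% and 0.559%. In each of these motifs 4.17% stands for 2 promoters. The androgen response element (GNACA and TGTNC with any 3 bases between) occurred in 3 of the 48 (6.25%), 0.758% of the 528 and 0.362% of all. These are counts of letters in a 300-base window, not of bound sites, and absence from the window says nothing of the factor.

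Among the other leading genes, Prol1, which encodes a proline-rich secreted protein, had a large interaction but the widest spread: 13.39, 9.91 and 11.42 in WT_DES against 6.26 to 7.35 elsewhere (interaction 5.40 ± 0.87, SE, adjusted p = 7.76e-04). Cxcl13, the chemokine that draws B cells into follicles, read 12.29, 12.72 and 12.44 in WT_DES and 6.06 to 7.58 on the other 9 arrays, with an interaction of 5.35. All 3 WT_DES arrays thus stood far above the rest. The next largest were the neutrophil gene S100a9 (5.07), the cytokine gene Il1b (4.77), the gasdermin gene Gsdmc2 (4.72), the cornified-envelope gene Sprr2f (4.49), Retnlg, a neutrophil resistin-like gene (4.42), and the protease inhibitor gene Serpina3n (4.35). Gsdmc3 (4.08), the cystatin-like Stfa2l1 (3.97), the polymeric immunoglobulin receptor gene Pigr (3.95), the lysozyme gene Lyz2 (3.85) and the serum amyloid gene Saa3 (3.83) followed. In all of these, WT_DES did not overlap any other array, as in 4161 genes (20.7%) where it lay wholly above and 4231 (21.0%) where it lay wholly below the other 9. Their aERKO responses ran from -0.23 (Prol1) to 0.28 (Lyz2), none of them called.

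**Figure D3:**
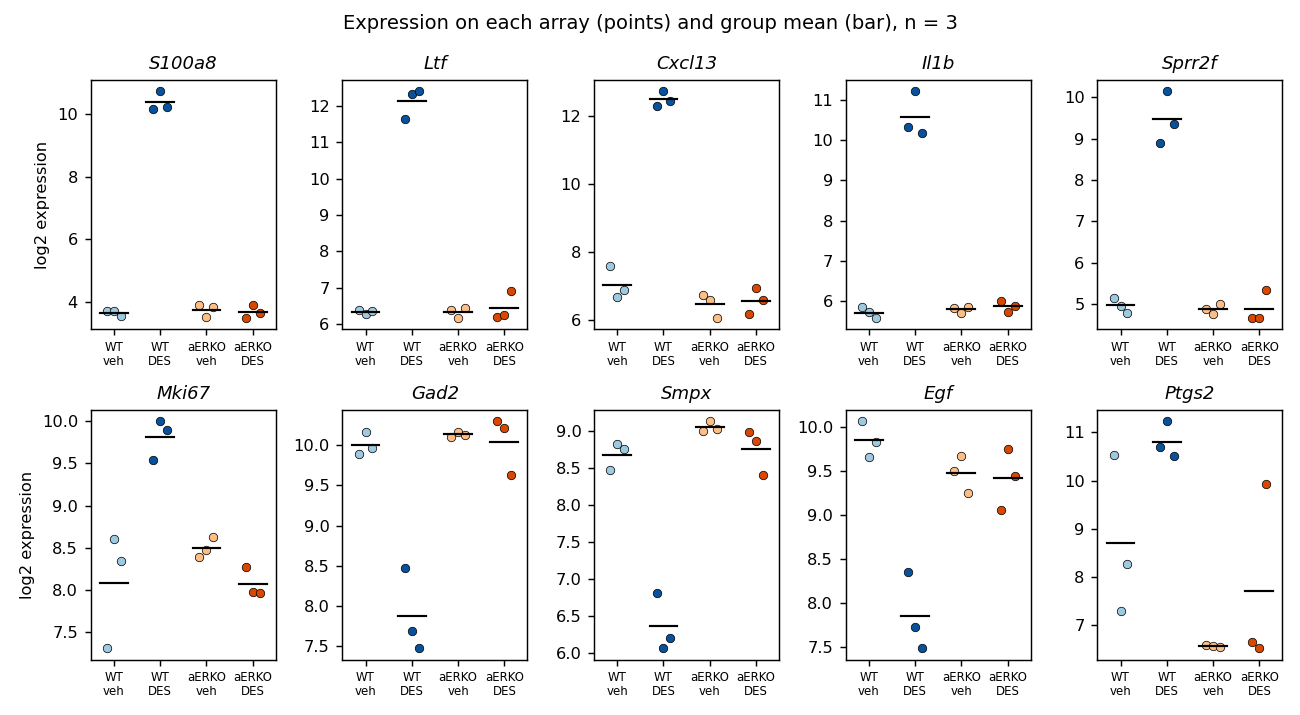
Log2 expression of 10 genes on each of the 12 arrays (points) with the group mean (bar); each panel has its own vertical range. In S100a8, Ltf, Cxcl13, Il1b, Sprr2f and Mki67 the WT_DES arrays lie above the other 9, in Gad2, Smpx and Egf below them, and in Ptgs2 single arrays of WT_vehicle (10.53) and aERKO_DES (9.93) stand with WT_DES.

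Estrogen targets of the female tract had positive interactions in 18 of 24 tested members and a negative one in 1. Their median was 0.96 against -0.03 for all genes. Over all genes tested, 14.1% had a positive and 9.16% a negative interaction. This list and those below were chosen with earlier results of these data known, so their counts and medians are descriptions only. Epithelial proteins led: 10 of 12 were positive, among them the squamous genes Sprr2b (2.74) and Sprr2d (2.59) beside Sprr2f, and Clca3a1 (3.37), which encodes a regulator of chloride channels. The secreted or surface proteins Lcn2 (2.49), which binds bacterial siderophores, Muc1 (1.48), a mucin, and Igf1 (1.13), a growth factor, were positive too. Pgr, the progesterone receptor gene that estrogen induces in the uterus, read 6.80, 7.19 and 6.91 in WT_DES and 5.94 to 6.33 elsewhere, and its interaction of 0.59 (adjusted p = 0.0101) was small beside these. Greb1, another standard estrogen-induced gene, had an interaction of -0.17 (adjusted p = 0.317). The kinase gene Sgk1 had the negative call (-0.48), which ended with the hybridization controls as scale, while 3 members were negative after a median shift or quantile normalization. Esr2, encoding estrogen receptor beta, fell in WT_DES to 6.25, 6.05 and 6.21 from 6.59 to 6.60 in WT_vehicle, while aERKO_DES read 6.45, 6.54 and 6.66. Its interaction of -0.42 (adjusted p = 0.0113) lost its call with the hybridization controls as scale. Esr2 stood 1.29 above the background controls in WT_vehicle and 1.30 in WT_DES, so its fall was about as large as theirs. The cause of its fall was not tested.

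Innate immune genes had the highest list medians. For comparison with the counts below, 14.1% of all genes had a positive interaction. Of 18 neutrophil genes tested, 15 had positive interactions (median 2.25), including all 7 receptors, such as the G-CSF receptor gene Csf3r (2.66). Ltf and Lcn2 are counted here and among the estrogen targets, so the 2 lists are not separate. Of 11 granule genes 8 were positive, while Camp (-0.02), Mpo (0.04) and Elane (0.22) did not pass the test. All 19 macrophage genes tested were positive (median 2.13), among them Lyz2, Adgre1 (3.03), which encodes the F4/80 antigen, Ctss (2.81) and Mpeg1 (2.86), against 3 of 7 dendritic cell genes. Chemokines were positive in 21 of 24, led by Ccl8 (3.61) and Cxcl9 (3.60). Inflammatory and acute-phase genes were positive in 21 of 27, including Il1a (2.65), Il1rn, the interleukin 1 antagonist gene (3.00), and the caspase gene Casp1 (3.20), with the acute-phase gene Orm1 negative (-0.93). Complement genes were positive in 13 of 14, such as Cfb (2.63) and C4b (2.36).

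The lists of B and T cell genes had smaller medians (0.88 and 0.59), while immunoglobulin segments included the largest interaction of all genes, 7.49. B and plasma cell genes were positive in 14 of 19, led by Jchain, the joining chain of secreted immunoglobulins (3.72), and the B cell surface gene Ms4a1 (2.76), with Derl3 negative (-1.48); Derl3 serves protein quality control in the endoplasmic reticulum of any secretory cell. Immunoglobulin segments were positive in 99 of 103 heavy variable and 70 of 72 kappa variable segments (medians 4.10 and 4.04), and near-identical segments share probes, so these are not independent genes. T and NK cell genes were positive in 10 of 17, among them Il7r (2.19), Cd4 (1.35) and Icos (1.34), while T cell receptor segments were positive in 5 and negative in 2 of 71, a called share of 9.86% against 23.3% of all genes. Organisers of lymphoid tissue were positive in 8 of 14, where 14.1% of all genes were. Beside Cxcl13 these were the adhesion gene Vcam1 (2.56), the B cell survival factor gene Tnfsf13b (1.66), Pdpn (1.53), Glycam1 (1.45), Icam1 (1.30), Ltb (0.98) and Ccl19 (0.88). Class II genes of antigen presentation were positive in 6 of 6, led by H2-Ab1 (2.15). Interferon-response genes were positive in 19 of 22, led by Gbp2 (3.04).

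The 2 innate cell lists had similar summed levels in aERKO_DES and in the vehicle groups. The summed neutrophil level was 10.55 to 10.67 in WT_vehicle, 13.52 to 14.11 in WT_DES, 10.54 to 10.75 in aERKO_vehicle and 10.57 to 10.82 in aERKO_DES. The summed macrophage and dendritic cell level was 14.32 to 14.74 in WT_DES, 11.94 to 12.14 in aERKO_DES and 11.93 to 12.17 in the vehicle groups. Interferon-response genes had the highest median aERKO response of the immune lists, 0.13: 20 of 22 were higher in aERKO_DES, led by Iigp1 (0.40), none with an unadjusted p below 0.05. Their medians on the 3 aERKO_DES arrays were 0.13, -0.03 and 0.24, so array 2 did not share this.

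**Figure D4:**
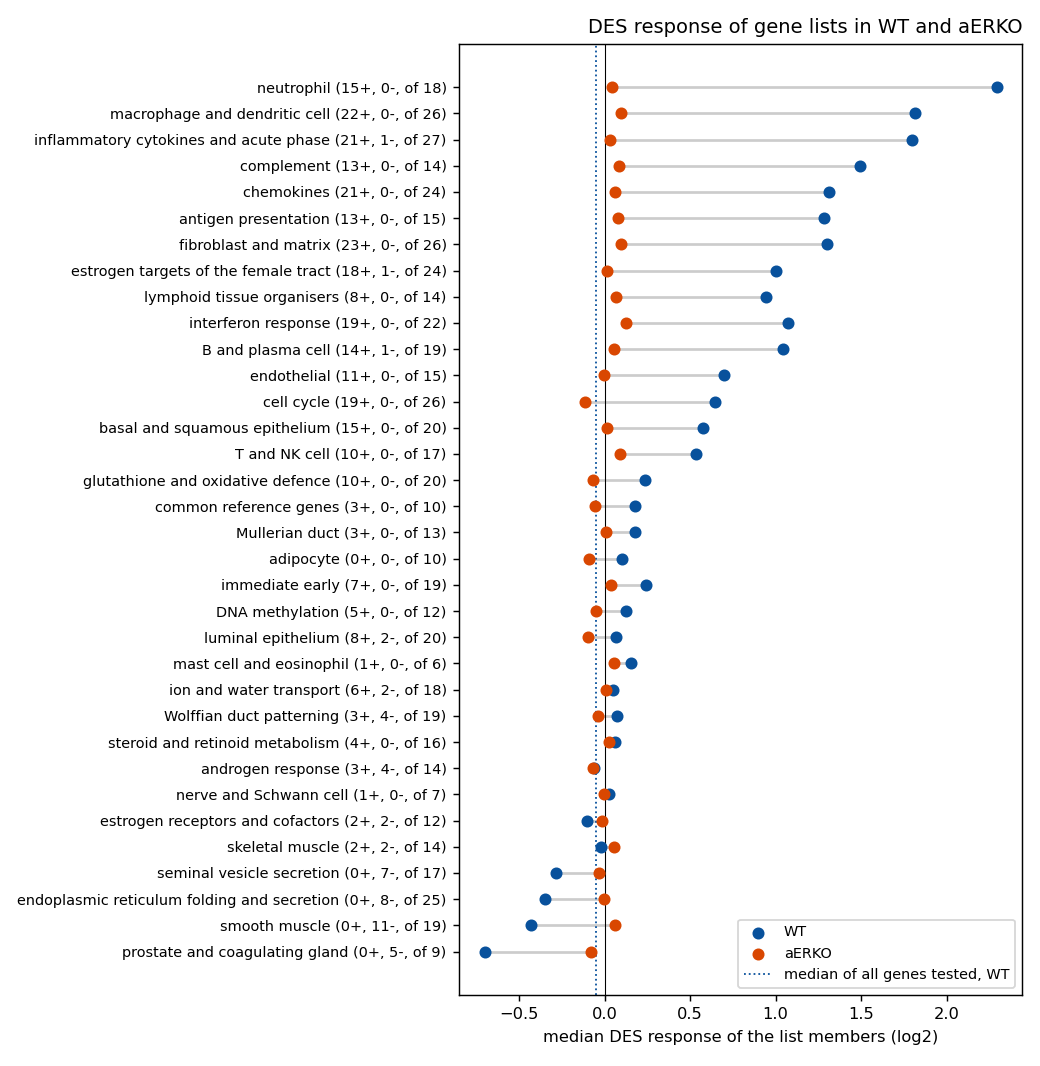
Median log2 response to DES of the tested members of each gene list in WT (blue) and aERKO (orange); labels give the positive (+) and negative (-) interactions called and the number of genes tested, and the dotted line is the median of all genes in WT. Lists are ordered by their median interaction. The aERKO medians all lie between -0.12 and 0.13, while the WT medians run from the prostate and coagulating gland list, below 0, to the neutrophil list at 2.29.

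Stromal and vascular genes also responded more in WT than in aERKO. Fibroblast and matrix genes had positive interactions in 23 of 26 (median 1.17), including the collagen genes Col1a1 (1.21), Col1a2 (1.33) and Col3a1 (1.65), the small leucine-rich proteoglycan genes Lum (3.23) and Dcn (1.84), and Lox, which crosslinks collagen (1.80). In aERKO, 24 of the 26 were slightly higher after DES, with a median of 0.10 and no unadjusted p below 0.05. Endothelial genes were positive in 11 of 15, led by the leukocyte-capturing selectin genes Selp (1.78) and Sele (1.15). Over all genes 14.1% were positive.

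Basal and squamous epithelial genes responded more in WT than in aERKO. Of 20 tested, 15 had positive interactions, against 14.1% of all genes, including Krt4 (2.83), Krt15 (2.41) and the desmosome gene Dsc3 (1.80). Krt5, the basal keratin gene, read 11.10, 11.53 and 11.32 in WT_DES, 9.67 to 9.73 in WT_vehicle, 9.60 to 9.67 in aERKO_vehicle and 9.56 to 9.60 in aERKO_DES (interaction 1.68, adjusted p = 1.19e-06). The basal regulator Trp63 had a smaller interaction, 0.51, and the late cornification genes Lor (-0.03) and Tgm1 (-0.01) did not pass the test. Luminal epithelial genes were split: 8 of 20 positive, such as Krt7 (0.82) and Cdh1 (0.80), and 2 negative, Rab25 (-0.55) and Ocln (-0.34). The negative share was near the 9.16% of all genes. In aERKO, 16 of the 20 were lower after DES, 4 of them with an unadjusted p below 0.05 (Krt18, Cdh1, Cldn3 and Cldn4). The split of calls depended on scaling, with 6 positive and 0 negative by the hybridization controls and 4 positive and 7 negative after quantile normalization.

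Cell cycle genes were higher after DES in WT, and most read slightly lower in aERKO without a call. Of 26 tested, 19 were positive and 0 negative, against 14.1% and 9.16% of all genes. The median interaction was 0.72, made of a median WT response of 0.65 and a median aERKO response of -0.12. Mki67, the proliferation antigen gene, read 9.54, 10.00 and 9.90 in WT_DES, 7.31, 8.61 and 8.34 in WT_vehicle, 8.39, 8.47 and 8.63 in aERKO_vehicle and 8.27, 7.98 and 7.96 in aERKO_DES. The DES arrays thus lay above vehicle in WT and below vehicle in aERKO without overlap, and the interaction was 2.15 ± 0.36 (SE, adjusted p = 0.00101), with an aERKO response of -0.43 and a 95% interval from -0.98 to 0.12. WT_vehicle array 1 lay lowest of all. In aERKO, 25 of the 26 cell cycle genes were lower after DES, where 55.7% of all genes were, and the medians on the 3 aERKO_DES arrays were -0.12, -0.13 and -0.11. No single member had an unadjusted p below 0.05 in aERKO. Genes of a list can move together and are not independent, and other lists leaned too. In aERKO, 10 of 10 common reference genes and 17 of 20 genes of oxidative defence were lower after DES. Skeletal muscle genes were higher in 14 of 14. The kinesin gene Kif11 (1.74), the topoisomerase gene Top2a (1.37), the cyclin gene Ccna2 (1.35) and the replication helicase gene Mcm6 (1.31) had the same arrangement of arrays.

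Large negative interactions were found in genes of several functions. Gad2, which makes the transmitter GABA, read 8.47, 7.69 and 7.47 in WT_DES. On the other 9 arrays it lay between 9.63 and 10.30, the lowest of them aERKO_DES array 3. Its interaction was -2.05 ± 0.31 (SE, adjusted p = 5.12e-04). Smpx, a small muscle protein gene, read 6.81, 6.06 and 6.20 in WT_DES and 8.41 to 9.13 elsewhere (interaction -2.03 ± 0.26, SE, adjusted p = 1.32e-04), and its aERKO response was -0.29, 12.7% of that in WT. Egf, the epidermal growth factor gene, read 8.36, 7.73 and 7.49 in WT_DES and 9.06 to 10.07 elsewhere (interaction -1.94 ± 0.30, SE, adjusted p = 6.4e-04). In all 3 genes every WT_DES array lay below every other array, as in 4231 of the genes tested (21.0%).

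Other large negative interactions were those of Doxl2, a diamine oxidase-like gene (-1.98), the RNA export factor gene Nxf7 (-1.83), the lipase-related Pnliprp1 (-1.82), the galactosidase-like Glb1l3 (-1.79), Tent5d (-1.73), Pate8 (-1.70), the lysine-degrading enzyme gene Aass (-1.68), the orosomucoid gene Orm3 (-1.65), Slc26a3, a chloride and bicarbonate exchanger (-1.60), the neuropeptide Y receptor gene Npy6r (-1.57), Fgl1 (-1.53) and Atp12a, a proton pump (-1.50). In Fgl1 the arrays overlapped: WT_DES read 8.82, 8.73 and 7.88, and aERKO_DES array 1 read 8.72. Pnliprp1 and Fgl1 fell from a higher level in WT_vehicle (means 10.39 and 10.11) than in aERKO_vehicle (9.47 and 9.30), a difference not called in either. Of the ion and water transport list, 6 of 18 were positive, among them the chloride-channel regulator gene Clca1 (2.99) and the water channel gene Aqp3 (0.92), and only the proton pump and the exchanger were negative, a share near the 9.16% of all genes.

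Few of the structural seminal proteins had a called interaction, on probes near the top of the array's range, where a change could be hidden. Of 17 secretory genes tested, 7 had negative interactions and 0 positive, with a median of -0.25. Over all genes 9.16% were negative and 14.1% positive. Svs4 (-0.04), Svs5 (-0.01) and Svs3b (-0.09) did not pass the test. The summed level of the list was 17.02 to 17.29 in WT_DES, 17.39 to 17.44 in WT_vehicle and 17.40 to 17.54 in aERKO. Svs2 was called at -0.34 (adjusted p = 0.0411), a call that 14 of 22 alternatives ended, and the protease inhibitor gene Spink1 at -0.90 (adjusted p = 0.0459), which 11 ended. Outside the structural proteins, 6 of 10 enzymes, inhibitors and growth factors were negative, including the transglutaminase gene Tgm4 (-0.68) beside Gad2, Egf and Pnliprp1. Genes of protein folding and export were negative in 8 of 25, against 9.16% of all genes, such as Derl3, Sdf2l1 (-0.74) and Hyou1 (-0.67). Smooth muscle genes were negative in 11 of 19 (median -0.46), such as Pgm5 (-0.86), Actg2 (-0.81) and Myh11 (-0.49), and 16 of the 19 were higher after DES in aERKO, with a median of 0.06. With the hybridization controls as scale the negative counts of these 3 lists were 3, 1 and 2, and after quantile normalization 12, 17 and 14.

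Genes of neighbouring glands and of the duct's origin were mixed. Prostate and coagulating gland genes were negative in 5 of 9, such as Gsdma (-1.36), Trpv6 (-0.90) and Chn2 (-0.76), and Tgm4 and Pnliprp1 stand on this list too. With the hybridization controls as scale, 2 were positive and 3 negative. In aERKO all 9 were lower after DES, none with an unadjusted p below 0.05. This rested on aERKO_DES array 1: the medians on the 3 arrays were -0.39, 0.106 and 0.045. The summed level of that list was 14.81 to 15.42 in WT_vehicle, 14.48 to 14.96 in WT_DES, 14.62 to 14.90 in aERKO_vehicle and 14.36 to 14.76 in aERKO_DES, and its part in the negative interactions was not tested. Over all genes 14.1% were positive and 9.16% negative, and the positive share of the Wolffian list was near that. Wolffian duct genes were positive in 3 of 19, including Fgf7 (1.11) and Hoxd13 (0.85), and negative in 4, including Egf, Pax2 (-0.41) and Hoxb13 (-0.71), the last of which lost its call in 9 alternatives. Mullerian duct genes were positive in 3 of 13, Tgfbi (3.21), Runx1 (1.17) and Wnt4 (0.37), and Wnt4 lost its call in 11 alternatives. Androgen-response genes were positive in 3 of 14 and negative in 4, led by the iron reductase gene Steap4 (1.99) and by Azgp1 (-1.28), which lost its call in 8 alternatives. With the hybridization controls as scale the androgen and Wolffian lists each kept 1 negative call, and after quantile normalization they had 5 and 6.

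The rest of the lists can be given by counts, to be read against 14.1% positive and 9.16% negative over all genes; the single calls in the mast cell and nerve lists and the calls of skeletal muscle genes are near those shares. Positive interactions were called for 10 of 20 genes of glutathione and oxidative defence, led by Gsto1 (2.49), 4 of 16 of steroid and retinoid metabolism, led by the glucuronosyltransferase gene Ugt2b34 (2.36), 5 of 12 of DNA methylation, led by Dnmt1 (0.65), and 7 of 19 immediate early genes, led by Ier3 (0.95), with 0 negative in each. Oxidative defence and DNA methylation gained 3 and 2 negative calls after quantile normalization. Receptor and cofactor genes had 2 positive, Pgr and Ncoa3 (0.77), and 2 negative, Esr2 and Gata2 (-0.68), of 12. Common reference genes were positive in 3 of 10, Hprt (0.62), Actb (0.54) and Gapdh (0.42), and Actb and Gapdh lost their calls after quantile normalization. Mast cell genes gave 1 call of 6 (Kit, 0.65), nerve genes 1 of 7 (Scn7a, 1.83), skeletal muscle genes 2 positive and 2 negative of 14, red blood cell genes 1 of 2 (Alas2, -0.35), and adipocyte (of 10) and epididymal genes (of 3) gave 0. With the hybridization controls as scale adipocyte genes had 3 positive calls and skeletal muscle genes 3 positive and 0 negative. The summed adipocyte level was 10.64 to 12.42 in WT_vehicle, 11.66 to 11.81 in WT_DES and 10.23 to 10.65 in aERKO.

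A few genes did not follow the pattern; they were picked because of their values. Ptgs2, the inducible prostaglandin synthase gene, read 10.70, 11.23 and 10.50 in WT_DES, 10.53, 7.30 and 8.26 in WT_vehicle, 6.58, 6.56 and 6.54 in aERKO_vehicle and 6.65, 6.52 and 9.93 in aERKO_DES. Its aERKO response of 1.14 rests on array 3, and its interaction was 0.97 ± 1.2 (SE, adjusted p = 0.562). Nt5c2, a nucleotidase gene, was the only gene beside Ptgs2 with an aERKO response of at least 1 in size, where WT had 1035 such genes. It read 9.73, 7.81 and 9.49 in aERKO_DES against 7.68 to 8.01 in aERKO_vehicle, and 8.63, 8.99 and 8.57 in WT_DES against 7.84 to 7.92 in WT_vehicle (interaction -0.34, adjusted p = 0.642). Cyp4a12a, a fatty acid hydroxylase gene, was again high on aERKO_DES array 3 (8.99, against 5.15 and 5.10). Lmbr1 was the only gene of the 976 whose aERKO response (-0.69) exceeded its WT response (0.31) in size, and it rested on aERKO_DES arrays 1 and 3 (6.25 and 6.65, against 7.43 on array 2).

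Of the 1029 genes called at 2-fold or more in WT, 9 had no interaction call. They include the protease gene Ctse, the fucosyltransferase gene Fut9, Tmem100 and the inflammasome-family gene Nlrp10. Ctse read 9.81, 9.33 and 10.21 in WT_DES and 9.41, 9.23 and 10.13 in aERKO_DES, so that the DES groups overlapped. The vehicle groups overlapped too, 8.45, 8.49 and 9.03 in WT against 9.40, 8.81 and 9.68 in aERKO (interaction 0.84, adjusted p = 0.143). Fut9 had a WT response of -1.03 from a WT_vehicle level of 8.40 to 8.69 to about the level of aERKO, 7.39 to 8.28 (interaction -0.86, adjusted p = 0.0594). A missed threshold does not show equal responses: the 95% interval of the aERKO response ran from -0.33 to 0.91 for Ctse and from -0.63 to 0.31 for Fut9.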

How the data were processed

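The deposited log2 values, 1 for each probe set and array, came from RMA as run by the authors (Expression Console, per the submitters' processing notes), with versions and genome build not given in the sources used here. RMA makes the distributions of arrays alike, so the direction of small differences depends on scaling. Groups and array numbers come from the sample titles. Of 72688 probe sets (186 controls), 30604 had exactly 1 symbol in the platform annotation, 2146 several and 39938 none; 1135 symbols were updated through the RefSeq gene table (GRCm38.p6). A gene with several probe sets (429) took the one with the highest mean over 12 arrays. Genes above their array's median on at least 3 arrays were kept, which removed 9961.

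All 12 arrays entered 1 fit in limma 3.58.1 (lmFit, contrasts.fit, eBayes; R 4.3.3) with a mean per group, 8 residual and 4.33 prior degrees of freedom, two-sided p-values adjusted by Benjamini-Hochberg across all 20102 genes. The code was tested on simulated data. The number of arrays limits the precision: the median SE was 0.128 for the interaction and 0.0903 for the response of a genotype.

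The members and the 36 gene lists (703 entries, 592 tested) were chosen with earlier results of these data known. A list's summed level is the log2 of the sum of its members' linear values. Named genes are the 15 largest positive and negative called interactions, up to 4 list members with the largest called interactions, and Esr1, Esr2, Pgr, Ltf, S100a8, Lyz2, Svs4, Svs2 and Greb1, leaving out provisional names, small RNAs and receptor segments; further list members are named as examples after their values were seen. No gene was called in aERKO, so that part of the rule names none. Alternatives were no filter, a stricter filter, the mean of probe sets, trend and robust moderation, array weights, quantile, median and hybridization-control scaling, the array number as a block, a fold of 2, both DES arrays numbered 3 left out, and each array left out; leaving aERKO_DES array 3 out of the 2-fold WT sets was chosen after seeing the data.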

Additional observations from a re-analysis of the deposited data

Results flagged for a closer look

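The response to DES differed between the genotypes, by the limma test of the difference itself, in 2838 genes with a positive and 1841 with a negative interaction. Probe sets with no gene symbol, which the comparisons above leave out, had 1483 called interactions of 13254 tested (11.2%, against 23.3% of named genes), 791 positive and 692 negative, 466 of at least 2-fold.

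In 191 genes (0.95% of those tested) every WT_DES array lay above every WT_vehicle array while every aERKO_DES array lay below every aERKO_vehicle array. In 77 (0.383%) the reverse held. Of the 191 and 77 genes, 145 and 62 had a called interaction, and 41 and 0 one of at least 2-fold. For comparison, 120 genes (0.597%) were higher on every DES array in both genotypes (80 with a call, 43 of at least 2-fold). In both genotypes 386 (1.92%) were lower (82 and 1). The named genes with opposite arms and large interactions include genes of proliferation: Mki67 (2.15), Kif11 (1.74), the kinetochore gene Knl1 (1.43), Top2a (1.37), Ccna2 (1.35), Hmmr (1.31), Mcm6 (1.31), Ect2 (1.23), Ccnb2 (1.23), Nusap1 (1.22), Tpx2 (1.14), Ckap2 (1.10), Prc1 (1.08), the histone gene H2ac15 (1.08) and the helicase gene Hells (1.03). Epithelial and signalling genes among them were Gabrp, a GABA receptor subunit (1.70), Krt5 (1.68), Rgs16 (1.55), the glutathione transferase gene Gsta4 (1.51), Nfe2l2, the regulator of oxidative defence (1.33), the transcription factor gene Cebpd (1.21), Efnb2 (1.17), Cpe (1.14), the NF-kB inhibitor gene Nfkbia (1.08), Ebf1 (1.08), Clic1 (1.03) and Adamts5 (1.02). Their interactions passed the limma test, while the lower values within aERKO passed it in none of them (smallest adjusted p 0.999). These genes were picked by the order of their arrays, which also enlarges the interaction, so that test lends the opposite arms no support. Some aERKO responses among them were small, such as that of Krt5 (-0.05).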

How the results depend on the processing

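A fold of 2 as well as the adjusted p left 976 interactions (909 positive, 67 negative). Their calls were kept under each scaling, but the number of negative ones at 2-fold was 36 with the hybridization controls, 97 after a median shift and 163 after quantile normalization. Shifting arrays to the hybridization controls gave 2939 calls, 133 of them negative, and 14 calls for the genotype difference given vehicle; the genotype difference given DES had 6378. Negative calls numbered 4288 after quantile normalization, 3834 after a shift to the same median and 3088 with array weights, which gave 52 genotype differences given vehicle. A fold of 2 left 1029 calls in WT, 2 genotype differences given vehicle and 1093 given DES. With an array left out, interactions numbered 3401 to 5713, positive ones 2310 to 3332, negative ones 1055 to 2381, WT calls 6471 to 9855, aERKO calls 0 to 1 and genotype differences given vehicle 0 to 6. The aERKO calls were Mid1 without aERKO_DES array 1 (0.95, limma adjusted p = 0.0087) and Nt5c2 without array 2 (1.79, limma adjusted p = 0.000504). Without both DES arrays numbered 3 there were 5397 interaction calls. Of 133 named genes with a call, 108 kept it under every alternative that tested them. With the array number as a replicate block 5991 interactions were called, but the numbers do not pair the arrays: of 18 same-numbered pairs 6 correlated above 0.1 (range -0.355 to 0.52), and 3 of 12 arrays correlated best with their own number. The cause of these changes was not tested. With 3 arrays a group, the precision of an aERKO response is limited to a median SE of 0.0903.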
